A study of Drosophila melanogaster with 8 samples.

Results

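Neurons that fire strongly switch on a small set of genes within a short time, and 4 such genes of the fly, Hr38, sr, Arc1 and Arc2, were followed here in heads that did or did not express an expanded repeat. The members were taken by name, as the rows of the gene table whose symbol is Hr38, sr, Arc1 or Arc2, which gave 4 of 16727 genes. Induced flies carried (G4C2)36, a transgene of 36 repeats of the kind that expands in C9orf72, with elavGS, a pan-neuronal GeneSwitch driver that is active only with the steroid RU486, and were fed 200 µM RU486 for 5 d. Uninduced flies had the same (G4C2)36; elavGS genotype in a w1118 background and were fed the ethanol vehicle for 5 d. All were females of 7 d, and each of the 4 induced and 4 uninduced libraries was made from polyadenylated RNA of 15 pooled heads. RU486 reached all induced flies and none of the uninduced flies, so drug and repeat cannot be told apart in any value below.

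When a neuron is excited, calcium enters and cAMP rises, kinases such as CaMKII, PKA and ERK become active, and transcription factors that are already present, CREB with its coactivators and SRF among them, turn on immediate early genes. Some of these encode transcription factors that act on later genes, and others encode proteins that work at the synapse. Hr38 is the fly member of the NR4A orphan nuclear receptors and can pair with the receptor Usp, and sr (stripe) encodes the fly EGR-type zinc-finger factor, which is also the fate determinant of tendon cells. Both are widely used in insects as marks of recent neuronal activity. Arc1 and Arc2 encode Gag-like proteins derived from a retrotransposon, as mammalian Arc does, and Arc1 forms capsids that carry its own mRNA from motor neurons to muscle.

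All 4 genes had higher counts in induced heads, with no overlap between the groups. Arc2 rose most, 5.77-fold, followed by Hr38 at 2.64-fold, Arc1 at 2.19-fold and sr at 1.71-fold, and all 4 passed the filter on low counts. Each passed the quasi-likelihood test of edgeR, adjusted by Benjamini and Hochberg over all 9905 genes tested, where 17.7% of genes were called higher at an adjusted p under 0.05 and 18.1% were higher without overlap. All 4 also passed a log2 fold change of 0.58 with that adjusted p, which 4.02% of the genes tested did. The genes were proposed with results of these libraries in view, so the number of calls among them describes them and is not a test of the group.

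Counts over all genes summed to 13421396 to 14962813 per library in induced heads and 13247282 to 14192723 in uninduced heads, which are similar totals. CPM below is the count per 1000000 counts of a library after TMM scaling, with factors of 1.04 to 1.08 in induced and 0.913 to 0.954 in uninduced libraries. Replicates of each group varied beyond sampling noise, with chi-square values averaging 2.74 to 8.9 over genes in induced and 3.77 to 12.4 in uninduced pairs, where 1 stands for sampling alone, and uninduced replicate 4 was in each of the 3 largest uninduced values. Heads were sequenced whole, so a higher level could mean more RNA per cell or more cells with the RNA, which bulk counts cannot tell apart.

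**Figure D1:**
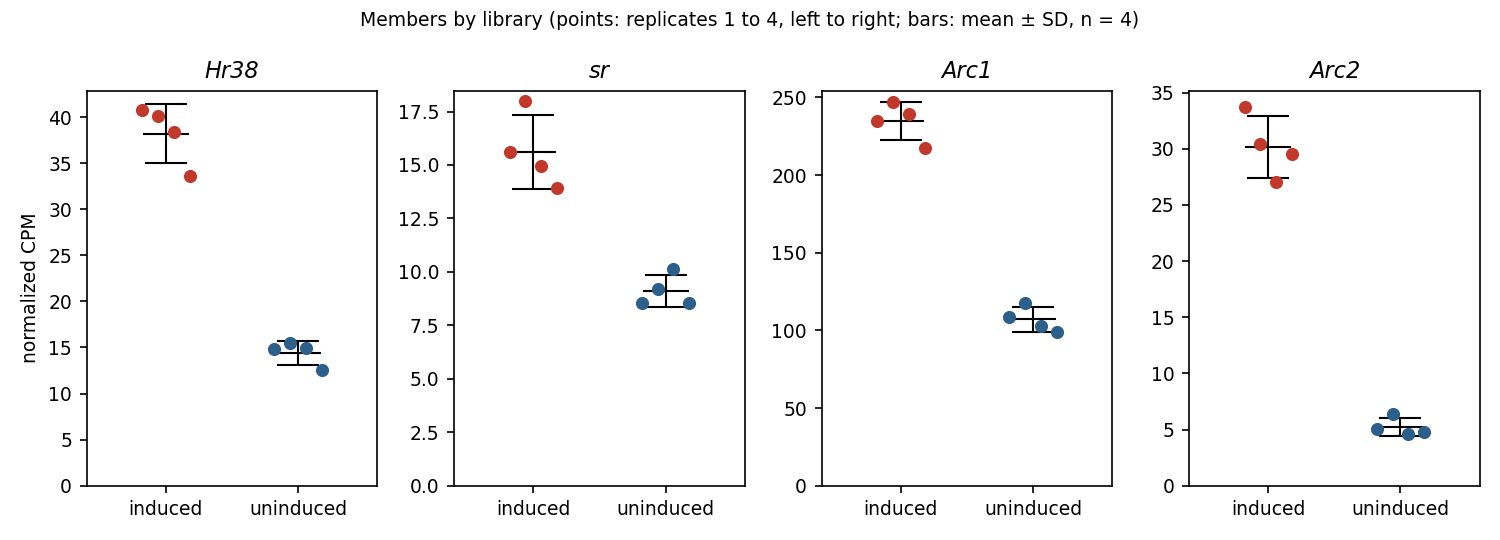
Normalized CPM (vertical axes, from 0, a different range in each panel) of Hr38, sr, Arc1 and Arc2 in induced (red) and uninduced (blue) heads, with 1 point per library and bars for mean ± SD (n = 4). In every panel the lowest induced library lies above the highest uninduced library, by a factor of 4.26 for Arc2 and 1.37 for sr.

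Hr38, on chromosome 2L from 20683462 to 20714588 on the minus strand (BDGP6 in dm6 coordinates), had 598, 582, 606 and 526 counts in induced replicates 1 to 4 and 198, 202, 189 and 161 in uninduced replicates 1 to 4. Scaled, these were 40.7, 40.1, 38.4 and 33.6 CPM in induced heads, against 14.8, 15.5, 15.0 and 12.5 CPM in uninduced heads. Replicate 4 was the lowest library of both groups, and the lowest induced library was still 2.17 times the highest uninduced library. The means were 38.2 ± 3.24 CPM in induced and 14.4 ± 1.31 CPM in uninduced heads (SD, n = 4 each), a log2 fold change of 1.40 (standard error 0.08, 95% interval 1.23 to 1.58, adjusted p = 1.41e-08 from edgeR). This ranked Hr38 at position 79 of the genes tested by rise. Of its 7704 exonic bases, 168 are shared with CG2617 on the opposite strand, which had 28 to 42 counts per library and a log2 fold change of -0.33 (adjusted p = 0.169), and no source used here gives the strand setting of the counting.

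The other transcription factor, sr, on chromosome 3R from 18090803 to 18135583 on the plus strand, gave the smallest rise of the 4. It had 229, 261, 236 and 218 counts in induced replicates 1 to 4 and 114, 120, 128 and 110 in uninduced replicates 1 to 4, or 15.6, 18, 14.9 and 13.9 CPM against 8.53, 9.19, 10.1 and 8.56 CPM. The groups did not overlap, but the gap was narrow, since induced replicate 4 was 1.37 times uninduced replicate 3. The means were 15.6 ± 1.73 CPM in induced and 9.10 ± 0.755 CPM in uninduced heads (SD, n = 4 each), with a log2 fold change of 0.78 (standard error 0.10, 95% interval 0.57 to 0.98, adjusted p = 2.25e-05 from edgeR). By rise, sr was at position 270 of the genes tested. No exonic base of sr is shared with another annotated gene.

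Arc1 was the most abundant of the 4. It lies on chromosome 2R from 14357927 to 14360297 on the minus strand and had 3445, 3579, 3780 and 3409 counts in induced replicates 1 to 4, against 1452, 1539, 1302 and 1272 in uninduced replicates 1 to 4. Scaled, the libraries held 235, 247, 240 and 218 CPM in induced and 109, 118, 103 and 98.9 CPM in uninduced heads, so that induced replicate 4 was again the lowest of its group, at 1.85 times the highest uninduced library. Means were 235 ± 12.4 CPM in induced and 107 ± 8.16 CPM in uninduced heads (SD, n = 4 each), and the log2 fold change was 1.13 (standard error 0.06, 95% interval 1.01 to 1.26, adjusted p = 4.45e-09 from edgeR). In absolute terms this was the largest gain among the 4, 128 CPM, compared with 25.0 CPM for Arc2, 23.8 CPM for Hr38 and 6.51 CPM for sr. The intervals of Arc1 and Hr38 overlapped, and the difference between these 2 changes was not tested.

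Arc2 was the weakest of the 4 in counts without induction. It lies on chromosome 2R from 14361924 to 14362825 on the plus strand, 1626 bases from Arc1, and had 495, 441, 427 and 463 counts in induced replicates 1 to 4, against 68, 83, 58 and 62 in uninduced replicates 1 to 4. These were 33.7, 30.4, 27.1 and 29.6 CPM in induced heads and 5.09, 6.36, 4.59 and 4.82 CPM in uninduced heads. Every induced library was at least 4.26 times every uninduced library, the widest gap of the 4 genes. The means were 30.2 ± 2.75 CPM in induced and 5.22 ± 0.786 CPM in uninduced heads (SD, n = 4 each), with a log2 fold change of 2.53 (standard error 0.10, 95% interval 2.31 to 2.75, adjusted p = 5.53e-10 from edgeR), position 27 by rise. An exact two-sided permutation test of log2 CPM gave p = 0.0286 for each of Hr38, sr, Arc1 and Arc2, the smallest p that 4 libraries against 4 allow.

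**Figure D2:**
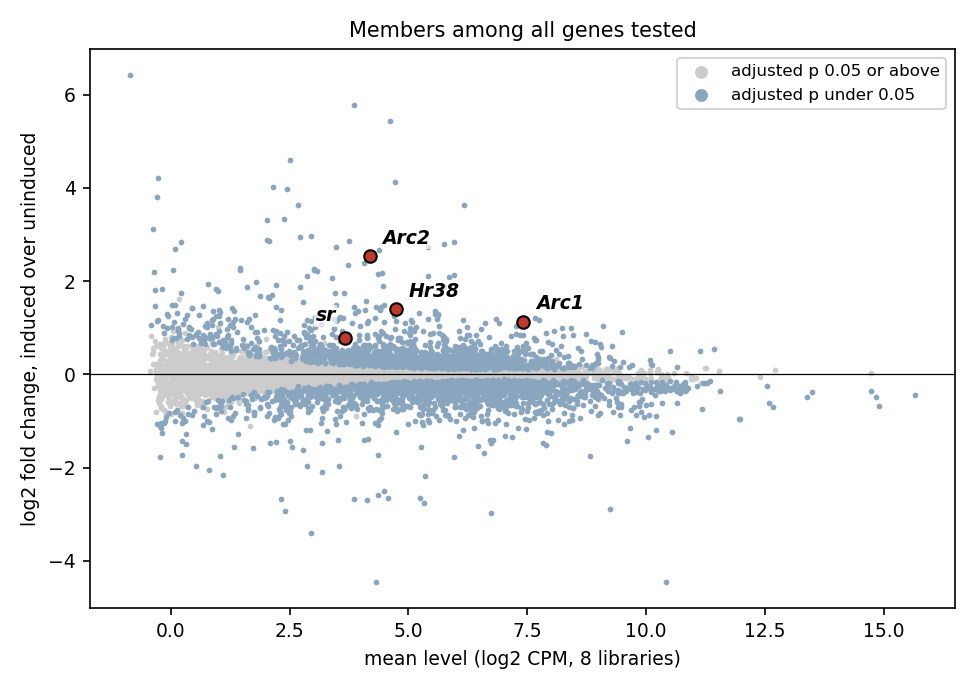
Log2 fold change, induced over uninduced (vertical axis), against the mean level in log2 CPM over 8 libraries (horizontal axis) of the 9905 genes tested, in blue at an adjusted p under 0.05 and grey otherwise, with Hr38, sr, Arc1 and Arc2 as ringed red points. All 4 lie above 0, Arc2 highest at 2.53 and sr lowest at 0.78.

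The 4 genes were expressed at very different levels. Per kilobase of exon, Arc1 had 99.0 CPM in induced and 45.2 CPM in uninduced heads, Arc2 33.5 and 5.78, Hr38 4.96 and 1.88, and sr 1.92 and 1.12. The order Arc1, Arc2, Hr38, sr was the same in both groups, and no neighbours in it overlapped in any library of a group. Among 9796 tested genes with an exon length, Arc1 lay at percentile 93.7 in induced and 85.1 in uninduced heads by this level, Arc2 at 80.7 and 30.1, Hr38 at 25.8 and 12.5, and sr at 12.2 and 7.84. The coefficient of variation over replicates was 5.26 to 11.1% in induced and 7.62 to 15.1% in uninduced heads, highest for Arc2 without induction, the gene and group with the fewest reads. Hr38 and sr stayed among the weakly expressed genes of the head in both groups, while Arc2 crossed from the lower into the upper part of the range. Exon lengths join the exons of all transcripts, which lowers the level per kilobase of genes with many transcripts.

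Arc1 and Arc2 did not change by the same amount. Arc1 had 6.95, 8.11, 8.84 and 7.36 counts per count of Arc2 in induced replicates 1 to 4, against 21.2, 18.4, 22.3 and 20.4 in uninduced replicates 1 to 4. The ratio does not depend on the scaling of libraries, and the groups were far apart. Its log2 value was 2.96 ± 0.153 in induced and 4.36 ± 0.116 in uninduced heads (SD, n = 4 each), a difference of -1.40 (exact two-sided permutation test, p = 0.0286, also after adjustment over the 2 ratios tested). Arc1 and Arc2 are paralogs, with 1 pseudogene between them, and reads could have been shared in the counting. Summed into 1 gene, they rose by 1.24 on the log2 scale (adjusted p = 1.95e-09 from edgeR).

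Hr38 and sr also changed unequally. Induced replicates 1 to 4 held 2.61, 2.23, 2.56 and 2.41 counts of Hr38 per count of sr, and uninduced replicates 1 to 4 held 1.73, 1.68, 1.48 and 1.46. The lowest induced ratio was above the highest uninduced ratio. On the log2 scale the ratio was 1.29 ± 0.103 in induced and 0.66 ± 0.127 in uninduced heads (SD, n = 4 each), a difference of 0.63 (exact two-sided permutation test, p = 0.0286, also after adjustment over the 2 ratios tested). The ratio of 1 gene to another shows unequal change only.

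**Figure D3:**
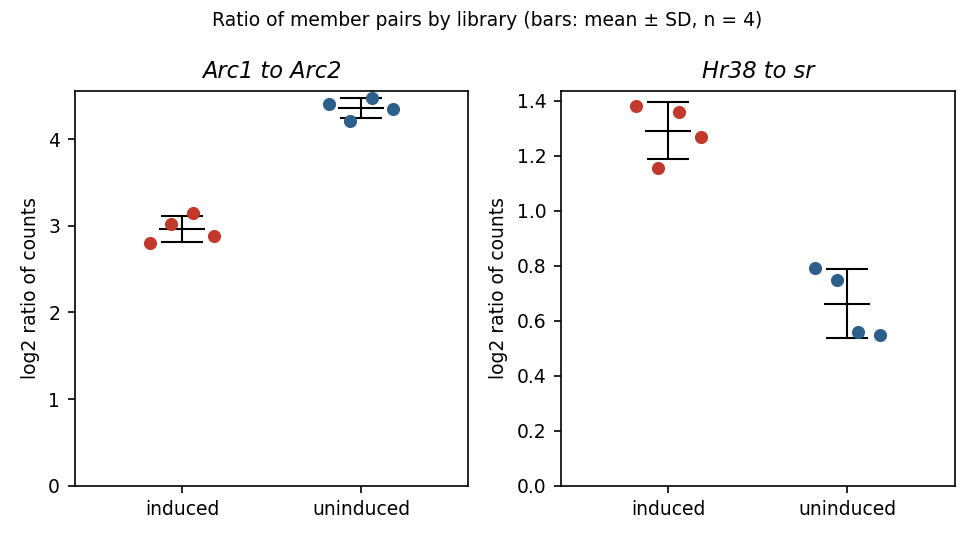
Log2 ratio of counts (vertical axes, from 0) of Arc1 to Arc2 and of Hr38 to sr, with 1 point per library and bars for mean ± SD (n = 4). The induced libraries (red) lie below the uninduced libraries (blue) for Arc1 to Arc2, with means of 2.96 and 4.36, and above them for Hr38 to sr, with means of 1.29 and 0.66.

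Within the groups, Hr38 and Arc1 varied together more than the other pairs. Pearson's r between the deviations of log2 CPM from the group means, over 8 libraries, was 0.812 for Hr38 and Arc1, 0.632 for Hr38 and sr, 0.617 for Arc1 and Arc2, 0.441 for Hr38 and Arc2, 0.418 for sr and Arc1 and 0.0395 for sr and Arc2. Hr38 in replicate 4 deviated by -0.18 in induced and -0.20 in uninduced heads, and Arc1 by -0.11 in both, the lowest library of each group for both genes. These values are descriptions of 8 libraries that share scaling. Of 9136 other genes whose log2 CPM averaged 1 or more, those closest to Hr38 by this measure were CG5151 (r = 0.973), Hsc70-4 (0.965) and CG12923 (0.962). Closest to sr were Atf6 (0.956), CG3016 (0.948) and CG5830 (0.94), to Arc1 Nup54 (0.976), temp (0.958) and Nnp-1 (0.951), and to Arc2 Blm (0.973), CG32440 (0.968) and CG10914 (0.961). All 12 were picked for the highest r among 9136 genes over only 8 libraries. Such picking yields high values by itself, and an excess over chance was not tested. Between the groups these 12 genes did different things, with log2 fold changes of 3.32 for CG32440 (adjusted p = 1.52e-08) and 0.77 for CG5830 (adjusted p = 2.41e-06), but -0.33 for CG5151 (adjusted p = 8.23e-04, all from edgeR).

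Apart from Arc1 and Arc2, which are neighbours of each other, the tested genes beside the members changed little. The nearest genes with counts on either side were looked at after the members' values were seen. Cen, next to Hr38, changed by 0.03 on the log2 scale (adjusted p = 0.557), and Tfb1, 222 bases beyond Arc2, by 0.10 (adjusted p = 0.208 from edgeR). Neither passed. CG8617, 645 bases from Arc1 on its other side, was called higher, at 20.7 CPM in induced and 18.3 CPM in uninduced heads (log2 fold change 0.18, adjusted p = 0.0466 from edgeR). The lncRNA beyond Hr38, the 2 lncRNAs within its span and both neighbours of sr had at most 2 counts in any library.

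The signalling components that link excitation to transcription showed no common direction. Of 21 components, 3 were called higher and 4 lower, with a median log2 fold change of 0.01, beside 36.5% of all genes called in either direction (17.7% higher and 18.8% lower) and a median of 0.00 over all genes tested, so the share called was close to that of all genes. Sik2, a salt-inducible kinase that keeps the CREB coactivator Crtc out of the nucleus, had the largest rise, with 80.9 ± 4.10 CPM in induced and 53.7 ± 3.90 CPM in uninduced heads (log2 fold change 0.59, adjusted p = 2.46e-06 from edgeR). CrebA, a factor of secretory pathway genes despite its name, rose by 0.26 on the log2 scale (adjusted p = 0.00175), and CrebB, the fly CREB, by 0.16 (adjusted p = 0.045).

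Of the calcium side, CaMKI fell to 428 ± 10.96 CPM in induced heads, against 542 ± 24.2 CPM in uninduced heads (log2 fold change -0.34, adjusted p = 6.44e-05 from edgeR), and Cam, which encodes calmodulin, fell by 0.20 (adjusted p = 0.00563). The catalytic PKA subunit Pka-C1 (-0.16, adjusted p = 0.0155) and the ERK kinase rl (-0.16, adjusted p = 0.0412) were also lower. CaMKII (log2 fold change 0.04, adjusted p = 0.515), Crtc (0.04, adjusted p = 0.609) and nej, the fly CBP (0.09, adjusted p = 0.133), did not pass. Nor did the calcineurin genes CanA1, CanA-14F, Pp2B-14D, CanB and CanB2 (log2 fold change -0.11 to 0.05, adjusted p = 0.155 to 0.875 from edgeR). The calls of CrebB and rl were lost in DESeq2 (adjusted p = 0.0584 and 0.0942), and each was also lost when single libraries were left out. These are levels of mRNA, which say nothing of kinase activity.

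Counterparts of mammalian immediate early genes gave 5 higher and 1 lower call among 12, beside 17.7% higher and 18.8% lower over all genes tested, with a median log2 fold change of 0.10. Gadd45, a stress-responsive gene, rose far more than the rest, to 91.9 ± 14.9 CPM in induced heads, against 13.3 ± 1.74 CPM in uninduced heads (SD, n = 4 each, log2 fold change 2.79, adjusted p = 6.03e-10 from edgeR). Next came Mkp3, an ERK phosphatase (log2 fold change 0.44, adjusted p = 7.55e-06), and Ccn, a secreted matrix protein gene (0.37, adjusted p = 3.04e-04). The AP-1 partners kay, the fly Fos, and Jra, the fly Jun, rose by only 0.19 and 0.15 on the log2 scale (adjusted p = 0.0496 and 0.0387).

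The calls of kay and Jra were fragile. Both were lost in DESeq2 (adjusted p = 0.0515 and 0.0907), and the list had 3 higher calls without induced replicate 2, 3 or 4 or uninduced replicate 2. The clock repressor vri was lower by 0.17 on the log2 scale (adjusted p = 0.0484), with overlapping groups, a call kept in 7 of its 15 alternatives and lost without induced replicate 1, 2 or 4 and without uninduced replicate 1, 2 or 3 (adjusted p = 0.089 to 0.146). The KLF-type factor cbt (log2 fold change -0.01, adjusted p = 0.916), Atf3 (-0.04, adjusted p = 0.558) and homer, a postsynaptic scaffold gene (0.08, adjusted p = 0.21), did not pass.

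Of 4 uncharacterized genes listed as candidates of fly activity screens, 2 rose and 2 fell, beside 36.5% called in either direction over all genes tested. That listing was from general knowledge and was not checked against published screens. CG14186 had 219 ± 6.10 CPM in induced and 123 ± 10.2 CPM in uninduced heads (log2 fold change 0.84, adjusted p = 6.6e-08), and CG8910 had 98.5 ± 4.65 CPM in induced and 55.2 ± 3.92 CPM in uninduced heads (0.84, adjusted p = 5.64e-08 from edgeR, SD, n = 4 each). Both were near sr in the size of their change. CG13868 fell by 0.28 (adjusted p = 0.00145) and CG17778 by 0.21 on the log2 scale (adjusted p = 0.0385), and the call of CG17778 was lost in DESeq2 (adjusted p = 0.103) and kept in 5 of its 15 alternatives.

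**Figure D4:**
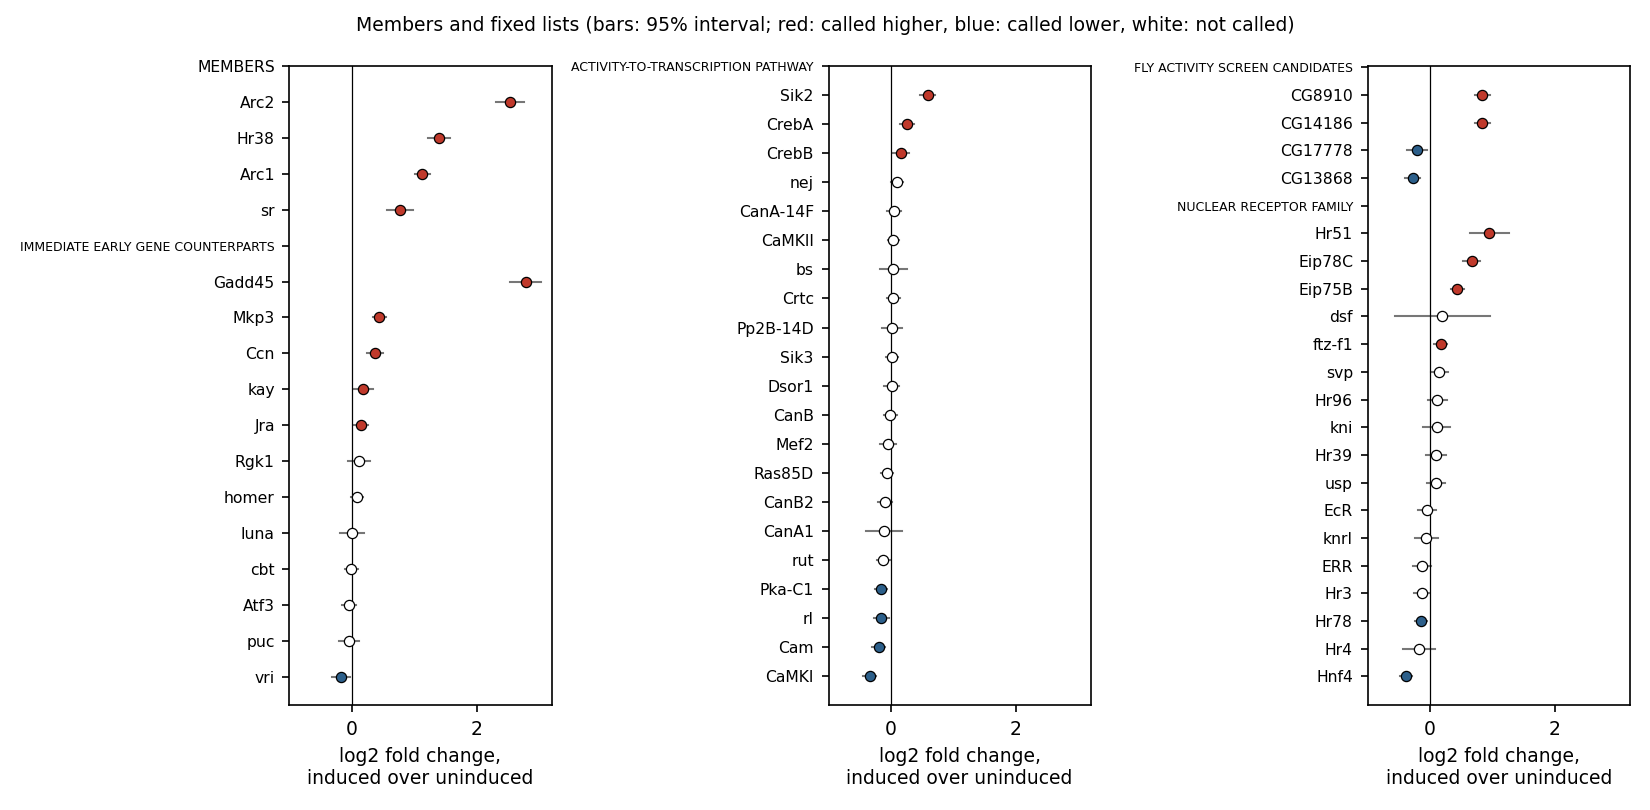
Log2 fold change, induced over uninduced (horizontal axes), of the 4 members, 12 immediate early gene counterparts, 21 signalling components, 4 fly activity screen candidates and the 17 tested nuclear receptors, with 95% intervals as bars, red points for genes called higher, blue for genes called lower and white for genes not called. Gadd45 (2.79) and Arc2 (2.53) lie farthest right, and CaMKI (-0.34) and Hnf4 (-0.39) farthest left.

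Among the other nuclear receptors, Hr38's family, 4 of 17 tested genes were called higher and 2 lower, with a median log2 fold change of 0.10, a share called close to the 36.5% of all genes tested. The largest rise was that of Hr51, a receptor of mushroom body neurons, on few reads, with 60 to 80 counts per induced and 25 to 36 per uninduced library (log2 fold change 0.95, adjusted p = 1.33e-04 from edgeR). The ecdysone-inducible receptors Eip78C (0.67, adjusted p = 1.77e-06) and Eip75B (0.44, adjusted p = 5.22e-06) and the receptor ftz-f1 (0.17, adjusted p = 0.0108) followed. Hr38's change of 1.40 was above the estimate of each of the 17, and these differences were not tested. Hnf4, a regulator of lipid catabolism, fell by 0.39 on the log2 scale (adjusted p = 1.83e-05), and Hr78 by 0.15 (adjusted p = 0.0244), a call lost in DESeq2 (adjusted p = 0.0607).

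Of the 17 receptors tested, Hr38's pairing partner Usp was not called, nor was EcR. Usp had 45.5 ± 1.15 CPM in induced and 42.6 ± 4.35 CPM in uninduced heads (usp, log2 fold change 0.10, adjusted p = 0.285), and the ecdysone receptor gene EcR had 34.0 ± 3.01 and 35.2 ± 2.17 CPM (log2 fold change -0.05, adjusted p = 0.626 from edgeR). The receptors Hr83, tll and eg had too few counts to be tested, with at most 10 in a library, and tll had 0 in all 8.

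Markers of neurons were present throughout and moved in both directions. The 13 neuronal markers summed to 4261 to 4533 CPM in induced and 3904 to 4307 CPM in uninduced heads. Their median log2 fold change was 0.02. Beside 17.7% called higher and 18.8% lower over all genes tested, 4 of these markers were called higher and 3 lower. Among them, the RNA-binding protein gene elav rose by 0.19 (adjusted p = 0.00166) and futsch, a microtubule-associated protein gene, by 0.71 on the log2 scale (adjusted p = 1.83e-07 from edgeR), while the synaptic vesicle gene nSyb had 0.02 and did not pass. The 3 lower markers were the transmitter genes Vmat (-0.31, adjusted p = 2.19e-04), Gad1 (-0.20, adjusted p = 0.00689) and VGlut (-0.20, adjusted p = 0.00493). Another transmitter gene, ChAT, was called higher (0.29, adjusted p = 4.87e-04 from edgeR), as was cac (0.20, adjusted p = 0.00356). Against the summed neuronal markers in place of library scaling, an alternative added later with the data in view, the log2 differences were 2.44 for Arc2, 1.31 for Hr38, 1.04 for Arc1 and 0.68 for sr, and all groups stayed apart (exact two-sided permutation test, p = 0.0286 each). Without futsch, which had 567 CPM in induced and 346 CPM in uninduced heads, the other 12 markers gave 2.51, 1.38, 1.11 and 0.75 in the same order (exact two-sided permutation test, p = 0.0286 each), near the values per library.

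Tendon cells also express sr. Beside the marker counts that follow, 17.7% of all genes tested were called higher and 18.8% lower. Of 6 tested tendon cell markers, 0 were called higher and 1 lower by edgeR, with a median log2 fold change of -0.08, and 0 higher at an unadjusted p under 0.05 and 0 called higher by DESeq2. The list summed to 633 to 663 CPM in induced and 585 to 664 CPM in uninduced heads, and most of this came from shot. The sum therefore mainly follows that gene. Without how and shot, 0 of the 4 tested markers were called higher and 1 lower, with a median log2 fold change of -0.14. The lower marker was Tsp, the thrombospondin gene, with 131 ± 7.45 CPM in induced and 146 ± 5.73 CPM in uninduced heads (log2 fold change -0.16, adjusted p = 0.0255). Its call was lost without induced replicate 1 and without uninduced replicate 1 or 3. The 6 fat body markers tested were all lower, at 89970 to 114800 CPM in sum in induced and 140700 to 152100 CPM in uninduced heads. Lsp2 fell furthest (log2 fold change -4.47, adjusted p = 1.5e-08 from edgeR). Fbp1 and Fbp2, also on that list, had too few counts to be tested, with at most 11 in a library. Of 4 tested hemocyte markers 3 were lower, Hml among them (-0.65, adjusted p = 0.0219), whose call was lost in DESeq2 (adjusted p = 0.0906) and without induced replicate 1, 2 or 4 or uninduced replicate 1. Of 8 glial markers 3 were higher and 3 lower, with a median log2 fold change of 0.02. The glutamate transporter gene Eaat1 fell furthest, to 246 CPM in induced heads, against 450.4 CPM in uninduced heads (-0.88, adjusted p = 2.95e-09). Also lower were moody, a blood-brain barrier receptor gene (-0.43, adjusted p = 1.83e-04), and Gli (-0.18, adjusted p = 0.0495). The higher markers were wrapper (0.23, adjusted p = 0.00515), alrm (0.19, adjusted p = 0.0445) and nrv2 (0.16, adjusted p = 0.0131, all from edgeR), while repo had 0.13 and did not pass. Of 11 photoreceptor markers the opsin gene Rh4 was lower (-0.39, adjusted p = 1.32e-05) and inaD higher (0.19, adjusted p = 0.024), with a median of 0.01, and of 7 muscle markers Act88F was higher on few reads (1.01, adjusted p = 0.00145), with a median of 0.00. The part that tendon, fat body, hemocyte, glial, photoreceptor or muscle RNA had in the members' values was not tested.

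**Figure D5:**
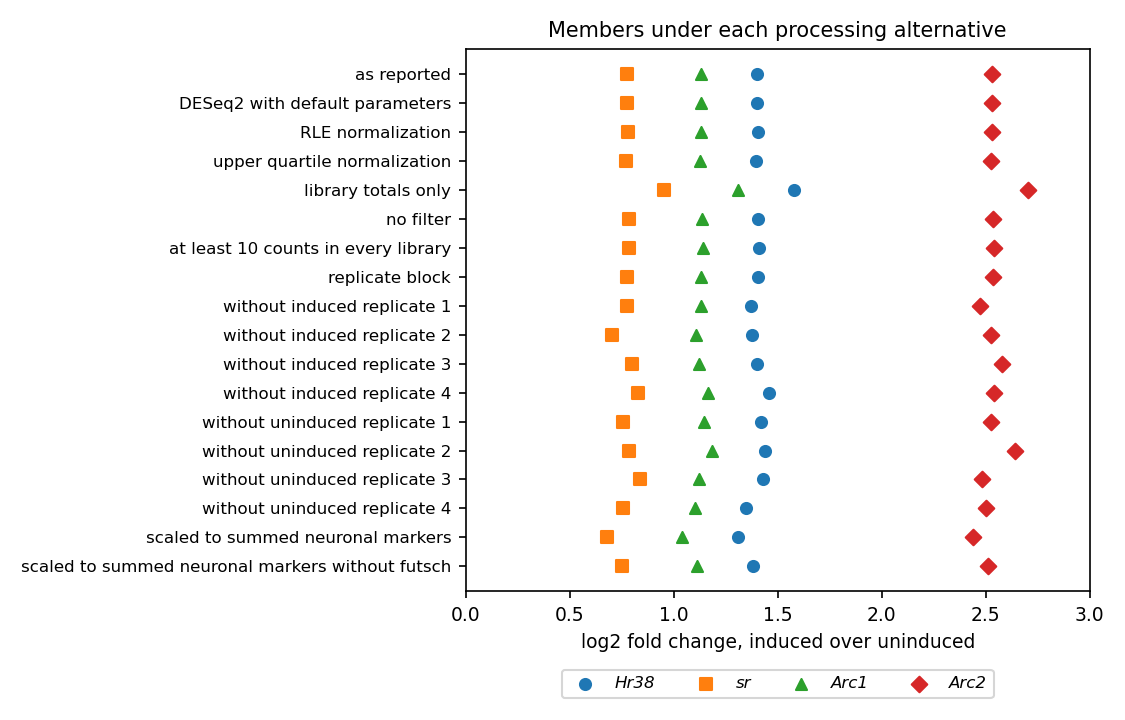
Log2 fold change, induced over uninduced (horizontal axis, from 0), of Hr38, sr, Arc1 and Arc2 as reported and under each of 17 processing alternatives (rows). The order Arc2, Hr38, Arc1, sr is the same in every row, and the lowest values are 2.44, 1.31, 1.04 and 0.68.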

How the data were processed

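The authors aligned reads to Dm6 and deposited a raw count per gene and library in a table of 16727 genes, with no pooling. Sources used here give no aligner, counter, annotation or strand setting. The normalized score that the authors deposited, a count divided by a size factor and rounded, was not used, nor were their columns of fold changes, p-values and dispersions.

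The test was that of edgeR 4.0.16 under R 4.3.3 (TMM, filterByExpr, quasi-likelihood test, Benjamini-Hochberg adjustment over 9905 genes), with an adjusted p under 0.05 as a call and the standard error taken back from the F statistic. The code was tested on simulated data. Permutation tests used log2 of CPM plus 0.1, and ratios added 0.5 to both counts. Positions and exon lengths are from Ensembl release 115. Sequences were not used here, so promoter motifs were not searched.

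The members and lists were chosen with earlier results of these data known. All 117 list entries, written from general knowledge, matched a row. Named genes were the members, 8 pathway genes, up to 3 called genes per direction in each of 4 lists, every screen candidate, 8 markers and the 3 genes most like each member. Further marker, family, neighbouring and partner genes were named after their values were seen. The libraries are labelled as biological replicates. Alternatives were DESeq2 1.42.0, other normalizations and filters, a replicate block and leaving out each library.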

Additional observations from a re-analysis of the deposited data

Results flagged for a closer look

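A library was looked for that lay farther from the other 3 of its group than Dixon's 95% limit allows. None of the groups of Hr38, sr, Arc1 or Arc2, or of their ratios, held one. Over all 126 groups of 4 values looked at, 15 did, where about 1 in 20 is flagged by chance, or 6.3, and 8 of the 15 concerned uninduced replicate 4. The genes most like a member share its libraries' deviations by the way they were chosen.

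Uninduced replicate 4 was low for the summed immediate early gene counterparts (1162 CPM, against 1276 to 1294 in the others), the summed tendon cell markers (584.5, against 655.5 to 663.8), kay (98.86, against 121.4 to 125.2), usp (36.09, against 44.06 to 45.15), Mhc (804.5, against 1025 to 1062), CG5151 (22.95, against 25.19 to 25.36), Hsc70-4 (1789, against 2060 to 2105) and CG12923 (4.978, against 5.985 to 6.125). Uninduced replicate 3 was high for Crtc (43.57 CPM, against 41.77 to 41.97) and CG3016 (44.12, against 38.83 to 39.51). Induced replicate 3 was high for the summed immediate early gene counterparts (1399 CPM, against 1334 to 1336), kay (144.2, against 128.8 to 130.8) and Hml (51.32, against 21.97 to 26.75). Induced replicate 2 was high for CG5830 (298.5 CPM, against 234 to 243.7), and induced replicate 4 was low for CG5151 (18.52, against 19.83 to 20.1).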

How the results depend on the processing

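Hr38, sr, Arc1 and Arc2 kept their direction under all 17 alternatives each and their call under the 15 with an adjusted p. The scalings to neuronal markers, with and without futsch, gave only the permutation p of 0.0286, the smallest that 4 libraries against 4 allow. The summed Arc1 and Arc2 counts kept direction and call under all 15. Both ratios kept their direction under all 9, with a permutation p of 0.0286. With each library left out in turn, log2 fold changes were 1.35 to 1.46 for Hr38, 0.70 to 0.84 for sr, 1.10 to 1.19 for Arc1, 2.47 to 2.64 for Arc2 and 1.21 to 1.29 for the sum, and the ratio differences -1.46 to -1.35 and 0.59 to 0.67.

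Scaling to library totals only moved all values up, with a median log2 fold change of all genes of 0.178, and called 4488 genes higher and 874 lower. Members were then 1.58 (Hr38), 0.95 (sr), 1.31 (Arc1) and 2.71 (Arc2). Calls became 11 higher and 1 lower for the signalling components, 8 and 0 for the immediate early gene counterparts, 0 lower for the screen candidates and 9 and 1 for the nuclear receptors. Marker medians became 0.20 (neurons), 0.20 (glia), 0.19 (photoreceptors), -0.41 (fat body), 0.18 (muscle) and 0.094 (tendon), and Tsp (0.022), rl (0.0215), vri (0.0027) and Hr78 (0.031) turned positive. These log2 fold changes had adjusted p-values of 0.651 to 0.977.

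DESeq2 called 3 counterparts higher, 1 candidate lower and 1 receptor lower. Lower candidates numbered 1 with no filter, and lower counterparts 0 with at least 10 counts in every library. With each library left out, counts were 2 to 4 (signalling, lower), 3 to 5 and 0 to 1 (counterparts, higher and lower), 1 to 2 (candidates, lower) and 1 to 2 (receptors, lower), and medians 0.0078 to 0.061 (neurons) and -0.12 to 0.0054 (tendon). Of 689 alternatives for 46 further genes, those that the naming rule gives, 596 kept call and direction.

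Nothing in the labels says that a replicate number marks a shared culture or day, and the correlations of same-numbered libraries were -0.106 to 0.0268, with 0 of 4 induced libraries closest to their own number. With a replicate block, 1671 genes were called higher and 1788 lower, the members had log2 fold changes of 1.40 (Hr38), 0.78 (sr), 1.13 (Arc1) and 2.53 (Arc2), and CG17778, CG3016 and rl lost their calls, which left 1 lower candidate.

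Precision is limited by few reads for Hr51 and for Arc2 in uninduced heads.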
